A study of Mus musculus with 8 samples.

Results

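miR-26a and miR-26b, the 2 microRNAs (miRNAs) of the miR-26 family, were measured in the livers of 4 db/db mice and 4 db/+ mice. The pair was taken by name from the array (mmu-miR-26a and mmu-miR-26b, mmu for mouse), as 2 of the 567 mouse miRNAs it probes, and each is read by 2 probes, which gave 4 probes and 40 spots per array. The db/db mouse is homozygous for the db allele of the leptin receptor gene and becomes obese and diabetic. That allele lacks the long, signalling form of the receptor throughout the body, not in the liver alone, while short forms are still made. The heterozygous db/+ mouse was the control, and carries a single copy of the same allele. The labels give the strain background as C57BL/KsJ, and no age or sex of the animals was found in them. Total RNA of whole liver, 100 ng per animal, was labelled with the dye Cy3 and hybridised to a 1-colour Agilent array, 1 array per animal. In RNA of a whole organ, fewer cells of a type and less RNA per cell cannot be told apart. The hepatocyte markers miR-122, miR-192 and miR-194 were detected on all 8 arrays, while 0 of 4 muscle and 0 of 2 neural marker miRNAs were detected on any array.

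A miRNA is a short RNA that guides a silencing complex to messenger RNAs, mainly through pairing of its seed, the bases near its 5′ end, and so lowers their translation or stability. The miR-26 miRNAs lie within genes of the Ctdsp family, which encode small phosphatases of the carboxy-terminal domain of RNA polymerase II, and are made from the transcripts of those genes. In liver, miR-26a is known for holding back cell division, through cyclins among other targets, and it has been reported to favour insulin sensitivity and to limit glucose and fatty acid synthesis in mice. The comparison of db/db with db/+ livers asks whether either member stands at another level in a diabetic, insulin-resistant liver.

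The mature sequences, from the RefSeq records of build GRCm38.p6 and matched for both members, are shown because they set what an array can separate. The seed, bases 2 to 8, is in capitals.
miR-26a-5p: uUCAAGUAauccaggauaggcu
miR-26b-5p: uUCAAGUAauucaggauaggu
The seed is the same in both, and of the 1679 mature mouse names listed by RefSeq it is carried by 2, those of the pair. Counted from the 5′ end, with the base of miR-26a first, the strands differ by C11U and C21U and are identical at 19 of 21 shared positions. miR-26a has 22 bases and miR-26b has 21.

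miR-26a comes from a pair of genes, Mir26a-1 on chromosome 9 within Ctdspl and Mir26a-2 on chromosome 10 within Ctdsp2, and miR-26b from Mir26b on chromosome 1 within Ctdsp1. These locations are those of RefSeq on GRCm38.p6. The hairpin precursors are shown with the mature strand in capitals, all on the plus strand.
Mir26a-1: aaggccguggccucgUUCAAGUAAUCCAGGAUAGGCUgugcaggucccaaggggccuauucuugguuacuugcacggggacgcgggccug
Mir26a-2: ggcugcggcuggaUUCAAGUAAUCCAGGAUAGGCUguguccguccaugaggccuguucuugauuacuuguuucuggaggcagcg
Mir26b: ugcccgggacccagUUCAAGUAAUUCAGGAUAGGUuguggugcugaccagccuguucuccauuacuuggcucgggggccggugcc
Both miR-26a hairpins hold the same mature strand, so the array signal of miR-26a is the sum of the products of Ctdspl and Ctdsp2 and cannot be divided between them.

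The array files place the miR-26a probes at Mir26a-2 alone. Probe A_54_P2481 spans 15 bases (chr10:126432606-126432620, mm9) and probe A_54_P4384 spans 16 bases (chr10:126432605-126432620, mm9). Probe A_54_P2483 of miR-26b spans 19 bases (chr1:74440900-74440918, mm9) and probe A_54_P2484 spans 20 bases (chr1:74440899-74440918, mm9). Both probes of a miRNA share the same last coordinate, which is taken here as the 3′ end of the mature strand. For miR-26b the passenger strand gave a partial check of that reading. The last coordinates of the miR-26b and miR-26b* probes lie 37 bases apart on the array, and the 3′ ends of the 2 strands lie 37 bases apart in RefSeq. An equal offset of both probe sets would give the same spacing, and miR-26a had no such check. The bases spanned are in capitals.
A_54_P2481 on miR-26a: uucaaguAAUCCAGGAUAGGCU
A_54_P4384 on miR-26a: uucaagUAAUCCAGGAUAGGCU
A_54_P2483 on miR-26b: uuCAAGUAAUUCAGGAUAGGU
A_54_P2484 on miR-26b: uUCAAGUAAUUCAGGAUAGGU
If the probes end at the mature 3′ end, the span of every one of the 4 takes in both differing positions. Whether a probe also binds the other member was not tested, and signal shared between such close relatives cannot be told apart here.

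Neither member passed the test between db/db and db/+ livers. Levels are given as scaled signal on a log2 scale, with each array divided by a factor that brings the median of the 89 miRNAs that every array detected to the same value on all arrays. miR-26a stood at 9.88, 9.93, 9.80 and 10.00 in the db/db livers, against 10.01, 9.77, 10.01 and 9.71 in the db/+ livers (replicates 1 to 4 of each). The db/db values lay within the db/+ range, with the db/+ replicates 1 and 3 above all db/db livers and the db/+ replicates 2 and 4 below all of them. The mean was 9.90 ± 0.086 in db/db and 9.88 ± 0.16 in db/+ (SD, n = 4 each). The log2 fold change was 0.026 ± 0.14 (SE), a 1.02-fold ratio, and did not pass limma's moderated test (adjusted p = 0.922). Its 95% confidence interval ran from -0.29 to 0.34 on the log2 scale, which is 0.821-fold to 1.26-fold.

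miR-26b stood at 9.50, 9.46, 9.29 and 9.54 in the db/db livers, against 9.35, 9.32, 9.25 and 9.05 in the db/+ livers. Of the db/db livers, replicates 1, 2 and 4 lay above every db/+ liver, and db/db replicate 3 lay within the db/+ range, so the groups overlapped. The mean was 9.45 ± 0.11 in db/db and 9.24 ± 0.13 in db/+ (SD, n = 4 each). The log2 fold change was 0.20 ± 0.14 (SE), a 1.15-fold ratio, and did not pass limma's test (adjusted p = 0.348), with a 95% confidence interval from -0.10 to 0.51 (0.932-fold to 1.43-fold). limma's SE draws on the spread of all tested miRNAs, and their median SD was larger (0.18 in db/db and 0.34 in db/+). The SE and interval of both members are therefore wider than their own spread alone would give. An exact permutation test, without such pooling and not adjusted, gave p = 0.0857 for miR-26b. Without db/+ replicate 4, the dimmest array, the log2 fold change of miR-26b was 0.043 (limma adjusted p = 0.861). Leaving out that array also rescaled the others and changed the set of tested miRNAs from 127 to 133. The median over the 133 was 0.012. Relative to the median of its own set, miR-26b stood at 0.031 without that array and at 0.055 with it.

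**Figure D1:**
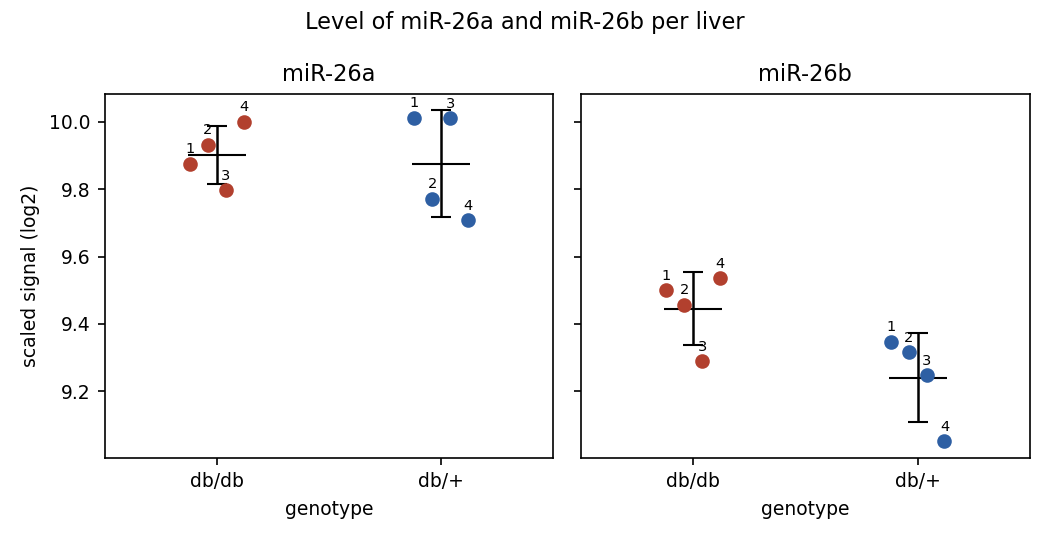
Scaled signal (log2, vertical axis) of miR-26a (left) and miR-26b (right) in each db/db and db/+ liver. Points are livers with their replicate number, the long bar is the mean and the whiskers are 1 SD (n = 4). The miR-26a values of the groups overlap throughout, and for miR-26b db/db replicate 3, at 9.29, lies among the db/+ livers.

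Over the whole array, 127 miRNAs seen throughout the 4 arrays of either genotype were tested, and 19 passed at an adjusted p under 0.05, 15.0% of those tested, 12 higher (9.45%) and 7 lower (5.51%) in db/db. Of the 2 miR-26 members 0 were called, with unadjusted limma p-values of 0.856 for miR-26a and 0.167 for miR-26b, where 26.0% of the tested miRNAs had one under 0.05. SAM, the method the series names, called 20 miRNAs (15.7%) and likewise 0 of the 2 members. It used the same scaled values and adds a constant to every SE, which weighs against small differences with little spread. It is thus no independent check on the members. The groups did not overlap for 22.8% of the tested miRNAs, a share that includes neither member. The excess of higher over lower calls depended on the scaling: it was 6 higher and 8 lower with the 75th percentile, 6 and 6 with quantile normalization, and 11 and 11 with cyclic loess. Scaling to hepatocyte-abundant miRNAs kept an excess, with 11 higher and 9 lower, and without scaling limma called 0.

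The median log2 fold change of the 127 tested miRNAs was 0.15, so that relative to it miR-26a stood at -0.12 and miR-26b at 0.055. A larger absolute log2 fold change than that of miR-26a was found for 118 of the 127 miRNAs, and than that of miR-26b for 87. Scaling to the 75th percentile placed the median of all tested miRNAs at 0.024 and miR-26a at -0.10, and left the distance to the median as it was. A factor per array shifts alike only the miRNAs that stay above the floor. Without scaling the distance to the median was -0.076 for miR-26a and 0.10 for miR-26b. Other processing moved that distance, which for miR-26b was 0.46 with normexp, 0.35 with raw median intensities and -0.011 with array weights. The miR-26a difference from db/+ was above or below 0 according to the scaling, and it passed the test under none of the settings tried. miR-26b was above 0 under all 28 alternative settings and called under 0 of them. Array weights aside, settings that change only the filter, the test or a floor far below the members return the reported value, so their sign adds nothing.

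Spread between livers was small for the members beside the tested miRNAs as a whole, which include much dimmer ones. The SD of miR-26a on the log2 scale was 0.086 in db/db and 0.16 in db/+, against medians of 0.18 in db/db and 0.34 in db/+ over the tested miRNAs. Of the 127 miRNAs, 14 had a smaller SD than miR-26a among the db/db livers and 16 among the db/+ livers. For miR-26b the SD was 0.11 in db/db and 0.13 in db/+, and 21 miRNAs had a smaller one among the db/db livers and 10 among the db/+ livers. At similar levels, miR-148a had SDs of 0.078 in db/db and 0.16 in db/+, and miR-194 had 0.052 and 0.13. miR-29b, also at a similar level, had 0.50 in db/db and 0.53 in db/+. A small spread was thus not particular to the pair.

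Before scaling, the members followed the brightness of their array. The signal of miR-26a was 796, 1040, 884 and 1087 on the db/db arrays, against 5813, 493, 1625 and 176 on the db/+ arrays. The range was thus 1.36-fold among the db/db arrays and 33.1-fold among the db/+ arrays. miR-26b read 614, 748, 621 and 788 on the db/db arrays, against 3666, 360, 957 and 112 on the db/+ arrays, a range of 1.28-fold in db/db and 32.8-fold in db/+. The scale factors of the arrays ranged 1.26-fold in db/db and 26.8-fold in db/+, and were 5.63, 0.564, 1.58 and 0.210 for db/+ replicates 1 to 4. After scaling, miR-26a was higher on the brighter db/+ replicates 1 and 3 (10.01 each) than on the dimmer replicates 2 and 4 (9.77 and 9.71); whether brightness has a part in the scaled values was not tested. The 8 arrays shared 1 slide on which each genotype filled its own row, db/db the first and db/+ the second, and genotype and row cannot be told apart.

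**Figure D2:**
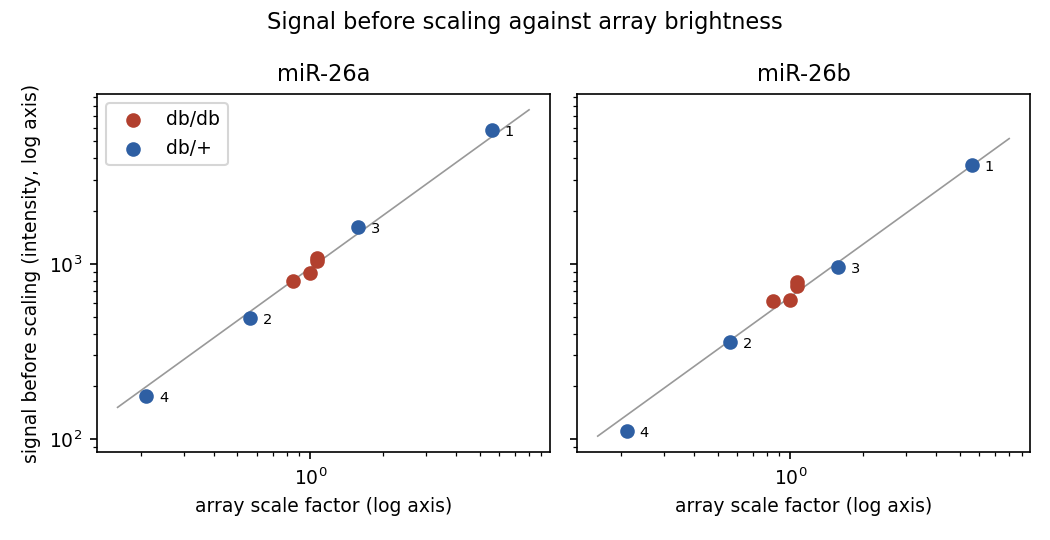
Signal before scaling (intensity, log axis) of miR-26a (left) and miR-26b (right) against the scale factor of the array (log axis), 1 point per liver, with replicate numbers for db/+. The grey line has the mean scaled level of the miRNA over the 8 arrays; the db/db arrays sit together near a factor of 1, and the db/+ arrays run from 0.210 to 5.63.

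The probes were read one by one, because a member's value is the mean of probes of different length. On probe A_54_P2481 miR-26a averaged 9.32 ± 0.065 in db/db and 9.29 ± 0.16 in db/+, and on probe A_54_P4384 it averaged 10.31 ± 0.097 in db/db and 10.29 ± 0.16 in db/+ (SD, n = 4 each). Their log2 fold changes were 0.031 ± 0.10 and 0.023 ± 0.10 (SE), so both miR-26a probes gave nearly the same small difference. In the fit over 271 probes of the tested miRNAs, 9.23% were called at an adjusted p under 0.05, and neither miR-26a probe was among them (limma adjusted p = 0.886 for A_54_P2481 and 0.911 for A_54_P4384). The groups did not overlap for 16.6% of the probes, and they overlapped for all 4 miR-26 probes.

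The miR-26b probes differed more between the genotypes but were not called either. Probe A_54_P2483 read 9.08, 9.05, 8.82 and 9.08 in the db/db livers, against 8.89, 8.72, 8.88 and 8.41 in the db/+ livers. Its db/db replicate 3 lay below the db/+ replicates 1 and 3, and the other db/db livers lay above all db/+ livers. The log2 fold change was 0.28 ± 0.13 (SE; 95% confidence interval -0.024 to 0.59; limma adjusted p = 0.236). On probe A_54_P2484 miR-26b averaged 9.78 ± 0.10 in db/db and 9.62 ± 0.12 in db/+ (SD, n = 4 each), a log2 fold change of 0.16 ± 0.092 (SE; 95% confidence interval -0.051 to 0.38; limma adjusted p = 0.312).

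**Figure D3:**
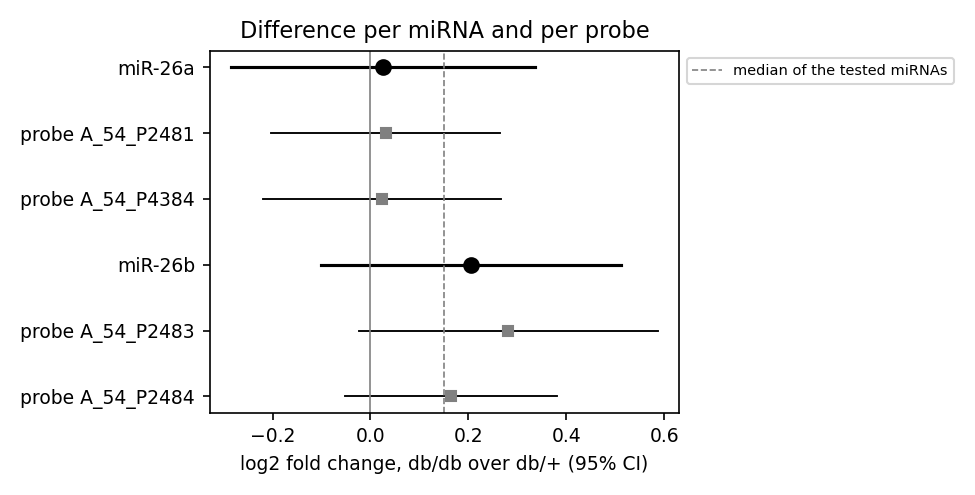
Log2 fold change of db/db over db/+ (horizontal axis) with its 95% confidence interval for miR-26a, miR-26b and each of their probes. Black circles are the miRNAs, grey squares the probes and the dashed line the median of the tested miRNAs (0.15); every interval spans 0.

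The replicate spots of an array give its technical precision. Between 8 and 10 spots per probe were used on each array after outlier spots were left out, all of them well above background, and none was saturated. The coefficient of variation over the spots of a probe ranged from 1.38% to 10.8%. Its median over arrays was 4.22% in db/db and 3.36% in db/+ for A_54_P2481, 3.16% in db/db and 4.63% in db/+ for A_54_P4384, 3.85% in db/db and 2.62% in db/+ for A_54_P2483, and 7.16% in db/db and 3.93% in db/+ for A_54_P2484.

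A ratio of the members within an array does not use the scaling between arrays. The log2 ratio of miR-26a to miR-26b was 0.38, 0.48, 0.51 and 0.46 in the db/db livers, against 0.67, 0.46, 0.76 and 0.66 in the db/+ livers. The db/+ livers 1, 3 and 4 lay above all db/db livers, and db/+ replicate 2 lay among them. The mean was 0.46 ± 0.057 in db/db and 0.63 ± 0.13 in db/+ (SD, n = 4 each). The difference of -0.18 did not pass a two-sided exact permutation test (p = 0.114; the smallest possible with 4 against 4 is 0.0286). Leaving out any other single array gave differences from -0.20 to -0.14 (exact permutation p from 0.114 to 0.171). Without db/+ replicate 2 the difference was -0.24 (exact permutation p = 0.0286, the smallest that 4 against 3 livers can give), but that array is the one that overlapped, so its removal fixes the separation and the p and neither counts as support.

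The same ratio was then taken between single probes, a choice made after the values were seen, which with the ratio of the miRNAs makes 7 ratios. The ratio of A_54_P4384 to A_54_P2483 was lower in db/db, with -0.26 and no overlap between the groups, and the ratio of A_54_P2481 to A_54_P2483 likewise, with -0.25 and no overlap. Each had an exact permutation p of 0.0286 and 0.1 after Benjamini-Hochberg adjustment over the 7, so neither passed. As 0.0286 is the smallest p of the design, 2 of 7 ratios at that value can reach no lower than 0.1, and the adjusted test could not have called them. Against the other miR-26b probe, A_54_P2484, the differences were -0.14 and -0.13 and the groups overlapped (exact permutation p = 0.229 and 0.314). The ratio between the miR-26a probes differed by -0.0078 between genotypes. The ratio between the miR-26b probes, A_54_P2484 to A_54_P2483, differed by -0.12 (exact permutation p = 0.343) and was 1.02 and 1.08 on the dimmer db/+ replicates 2 and 4, against 0.81 and 0.66 on the brighter db/+ replicates 1 and 3. The miR-26b probes thus did not keep one ratio across the db/+ arrays.

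**Figure D4:**
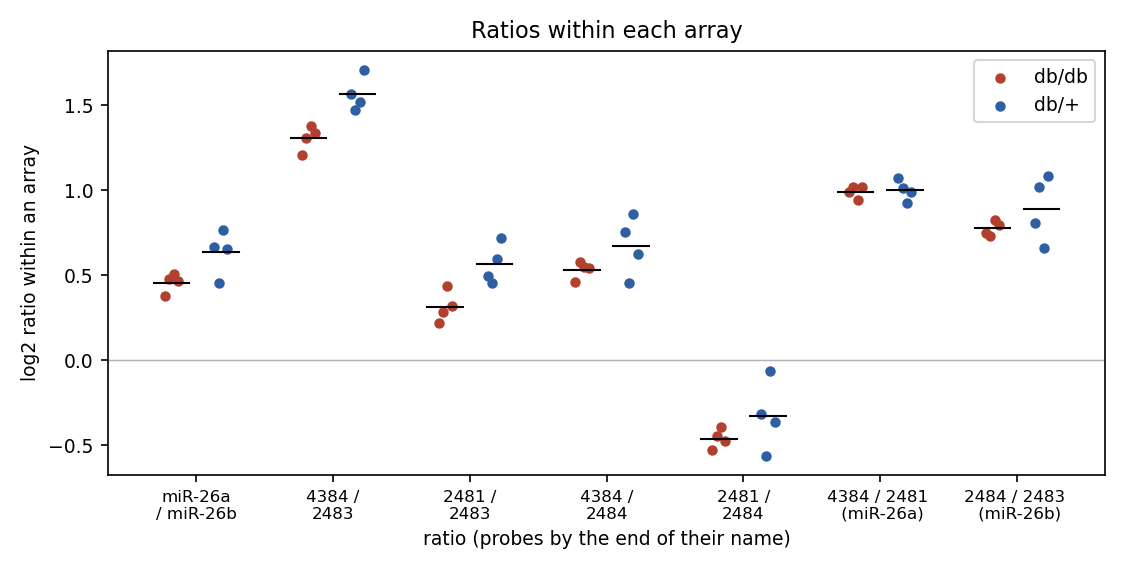
Log2 ratios within an array (vertical axis) for miR-26a over miR-26b, for each pair of a miR-26a and a miR-26b probe, and for the probes of 1 miRNA against each other, in db/db and db/+ livers. Points are arrays and bars are means (n = 4); the groups separate for both ratios of a miR-26a probe to A_54_P2483 and overlap for the others.

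The passenger strand of miR-26b, miR-26b*, which is usually degraded, has 4 probes on the array and was detected on 0 of 4 db/db arrays and 0 of 4 db/+ arrays. Of the 18 to 20 spots used per array, at most 1 was well above background in db/db and 0 in db/+. No fold change is given for it.

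The profiles most like those of the members were sought as the smallest mean absolute difference over the 8 arrays, after each log2 profile was centred on its own mean. For miR-26a these were miR-98, a let-7 relative (0.080), miR-148a (0.098), miR-194, which is abundant in liver (0.0995), and miR-30b (0.102), against a median of 0.30 over the tested miRNAs. For miR-26b they were let-7f (0.050), miR-98 (0.062), let-7a (0.103) and miR-194 (0.112), against a median of 0.28. The members were 0.112 apart from each other, which placed miR-26b in position 7 from miR-26a and miR-26a in position 5 from miR-26b. The log2 fold changes of these 6 neighbours ran from -0.020 (miR-148a) to 0.30 (let-7a), and none passed limma's test (adjusted p from 0.187 to 0.949). The groups did not overlap for miR-98, miR-194 and let-7a, and overlapped for miR-148a, miR-30b and let-7f. Over all tested miRNAs they did not overlap for 22.8%. The neighbours were picked from these same arrays, so this count describes and does not test. Profiles with little spread come out close by this measure whether or not they vary together. These likenesses are a description of 8 arrays that share their scaling.

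Other miRNAs tied to insulin action and glucose metabolism gave calls in the same fit. This list and those below were chosen with earlier results of these data known, so their counts describe and do not test. Of 18 listed, 11 were tested, 5 rose in db/db and 0 fell, with a median log2 fold change of 0.58, a range from -0.69 to 2.54, and a median of 0.15 for all tested miRNAs; the share of all tested miRNAs called higher was 9.45%. Those that rose were miR-34a (2.54), which represses the deacetylase Sirt1, miR-378 (1.09), which lies within Ppargc1b, miR-200b (0.81), and miR-107 and miR-103 (0.74 and 0.58), known to lower hepatic insulin sensitivity. The miR-29 members of the list had negative values that did not pass, -0.43 for miR-29a, -0.69 for miR-29b and -0.51 for miR-29c (limma adjusted p = 0.187, 0.185 and 0.0860). Of the 9 hepatocyte-abundant miRNAs, 0 were called, with a median of 0.098 and a range from -0.55 to 0.42. Of 11 tested miRNAs of growth and cell cycle, 0 rose and 1, miR-21, fell by 0.78 on the log2 scale. Their median was 0.050 and their range -0.78 to 0.50. Of all tested miRNAs 15.0% were called in either direction and 5.51% were called lower. The miR-26 values of 0.026 and 0.20 lay within the ranges of all 3 lists.

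Markers of other cells were read alongside. Of the 7 leukocyte miRNAs 4 were tested and 2 fell, miR-142-3p by 1.10 and miR-223 by 0.74 on the log2 scale, and the summed scaled signal of the 7 was 321 to 420 in db/db and 514 to 761 in db/+. The summed signal of the epithelial miRNAs of bile ducts was 76.2 to 104 in db/db and 62.8 to 68.8 in db/+. Of their 2 tested members 1, miR-200b, was called higher, and it is also on the insulin and glucose list. Of all tested miRNAs, 5.51% were called lower and 9.45% higher, and the groups did not overlap for 22.8%. Of the endothelial, erythroid, stellate and pancreatic lists, 0 of 2, 0 of 1, 0 of 3 and 0 of 1 tested members were called. Whether other cells differed in number or in RNA per cell, and whether that has a part in the miR-26 values, was not tested.

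**Figure D5:**
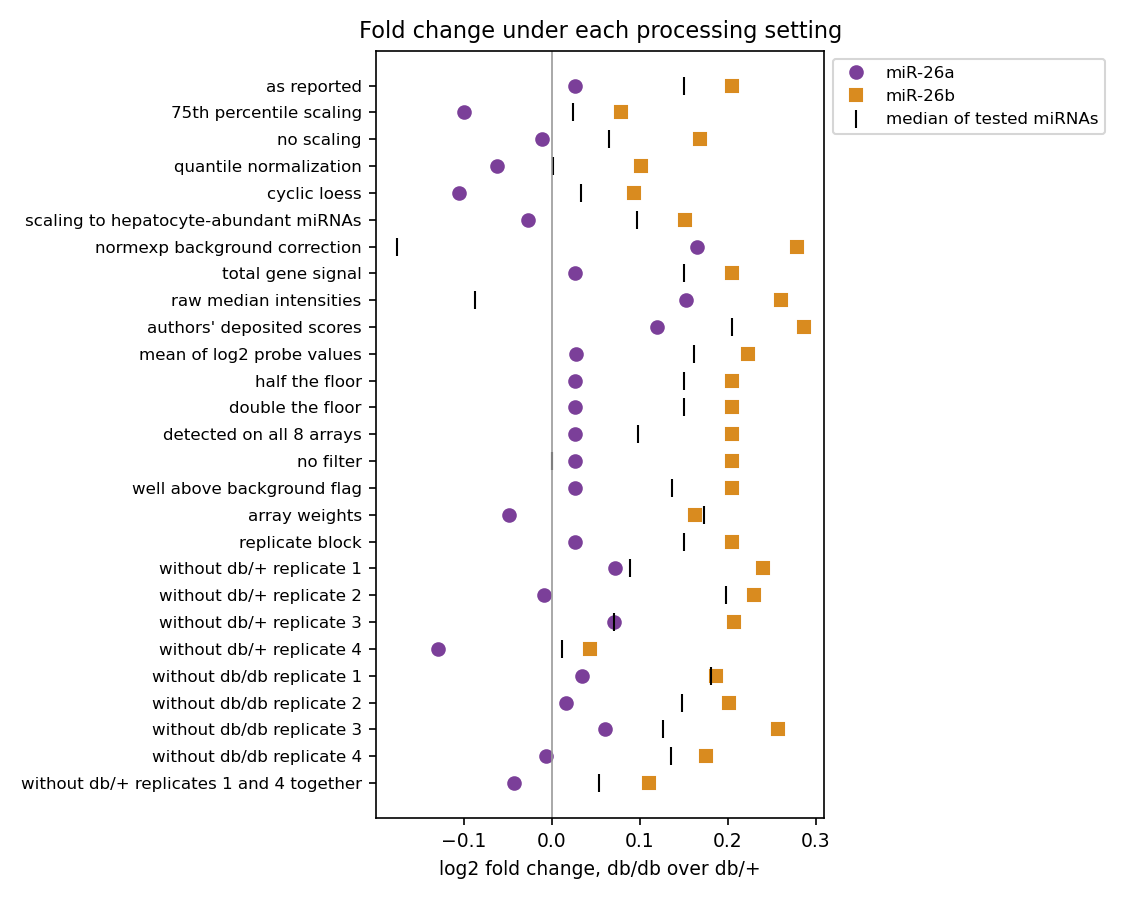
Log2 fold change of db/db over db/+ (horizontal axis) for miR-26a and miR-26b under each processing setting (rows), with the median of the miRNAs tested under that setting as a tick. miR-26b lies right of miR-26a in every row and right of 0 throughout, from 0.043 to 0.29, while miR-26a runs from -0.13 to 0.17.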

How the data were processed

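The scanner files the authors deposited hold spot intensity, background-subtracted by Agilent's Feature Extraction software and without scaling across arrays (version 9.5.3.1 per the file headers, 9.3.5 in the series text), and flags (0 or 1, of another kind than intensity). The deposited series table repeats the raw median intensity, with 12493 of 12493 spots identical on every array. The authors also deposited a score for each of 139 miRNAs, which the series text calls a log value after global median normalization. Its log base is not stated and was estimated from the scanner values of all scored miRNAs as 20.0, on which the score was converted to log2. The members alone gave bases from 15.3 to 26.1 on single arrays, so their converted scores are approximate.

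Control spots and outlier spots (3.42% to 4.84% per array) were left out, spots were averaged per probe and probes per miRNA, signals were divided by a factor per array (0.210 to 5.63) that brings the median of the 89 miRNAs that every array detected to one common value, and scaled values were floored at 4.59, far below the members, before log2. limma 3.58.1 in R 4.3.3 was fitted with genotype as the only term on 127 miRNAs, and on their 271 probes, with Benjamini-Hochberg adjustment. Ratios had exact permutation tests. Replicates are separate animals per the series text; db/+ replicate numbers 1 and 2 only name arrays. The number of arrays limits precision. Members, lists and tests were chosen with earlier results of these data known. Named were the members, their probes, miR-26b*, the 4 nearest profiles of each member and list miRNAs past the threshold. miR-199a-3p was listed but not matched by name.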

Additional observations from a re-analysis of the deposited data

Results flagged for a closer look

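Probe A_54_P2483 of miR-26b stood apart on 1 array. In db/db replicate 3 its scaled log2 signal was 8.82, against 9.05 to 9.08 in the other db/db livers, and this gap took up a share of 0.868 of the range of the 4 livers and exceeded Dixon's critical value for 4 samples. It was 1 of 46 sets of 4 arrays examined, where chance gives about 1 in 20.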

How the results depend on the processing

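The values of miR-26a and miR-26b passed the threshold under none of the alternatives tried, with adjusted p from 0.617 to 0.993 for miR-26a and from 0.286 to 0.993 for miR-26b. The exact permutation test, not adjusted, gave p = 0.771 for miR-26a and 0.0857 for miR-26b. Array weights aside, settings that changed only the filter, the test or the floor left both fold changes as reported, so tallies of signs include repeats. miR-26a turned negative in 10 of 28 settings: -0.10 with the 75th percentile, -0.011 without scaling, -0.062 with quantile normalization, -0.11 with cyclic loess, -0.027 when scaled to 9 hepatocyte-abundant miRNAs, -0.049 with array weights, -0.043 without db/+ replicates 1 and 4 together (chosen after the data were seen), and, with 1 array left out, between -0.13 and 0.071. With 1 array left out miR-26b ranged from 0.043 to 0.26. The miR-26a probes turned negative with the 75th percentile (-0.095 for A_54_P2481 and -0.10 for A_54_P4384) and without scaling (-0.0055 and -0.013); with 1 array left out they ranged from -0.12 to 0.093 and from -0.13 to 0.077, and the miR-26b probes from 0.079 to 0.35 (A_54_P2483) and from 0.025 to 0.21 (A_54_P2484). The ratio of miR-26a to miR-26b was negative in all 14 alternatives, from -0.24 to -0.11, and from -0.24 to -0.14 with 1 array left out. The median of all tested miRNAs, 0.15 as reported, was 0.024 with the 75th percentile, 0.0014 with quantile normalization, 0.033 with cyclic loess, -0.18 with normexp and -0.087 with raw medians, where miR-26a was -0.12, -0.064, -0.14, 0.34 and 0.24 relative to it and miR-26b 0.055, 0.100, 0.061, 0.46 and 0.35.

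The count of called miRNAs, 19, was 12 with quantile normalization, 2 with normexp, 1 with raw median intensities, 3 with the deposited scores, 4 with no filter, 42 with array weights, 9 without db/+ replicates 1 and 4 together and 11 to 20 with 1 array left out (11 without db/db replicate 2 and 12 without db/db replicate 3); without scaling limma called 0, with 1 at an unadjusted p under 0.05. The cause was not tested. The replicate numbers 3 and 4 are shared by the titles of both genotypes; with them as a replicate block miR-26a had 0.026, miR-26b 0.20, and 18 miRNAs were called. Same-numbered arrays deviated together with r = 0.036 and 0.31 across 127 miRNAs, which are not independent, so the numbers were not taken to pair the animals. The median over all mouse miRNAs was below 0 on 3 arrays and gave no scaling.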
